A study of Mus musculus with 13 samples.

Results

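Cultured immature Sertoli cells of the mouse testis were compared with cultured mouse embryonic fibroblasts (MEF) on 1-colour expression arrays, with 2 arrays for each cell type. The comparison took the 22525 array features, of 31465 that carry 1 gene name, whose log2 signal was above the array's median on at least 2 of these 4 arrays. With 1 feature kept for each gene, the one with the highest mean over all arrays of the study, 14890 of 20738 genes were members. The study set such native cells beside fibroblasts carrying the transgenes Nr5a1, Wt1, Dmrt1, Gata4 and Sox9, and 13 arrays of 7 groups were analysed here.

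The immature Sertoli cells came from wild-type embryo testis at 19 days post coitum (dpc), carried no transgene and were grown for 3 days in DME medium with 10% serum. The MEF were wild type, carried an empty vector and were grown for 3 passages in the same medium; the labels give neither the age of the embryos they came from nor their sex. Time in culture and the empty vector thus differ between the groups together with the cell type, and the design cannot tell these apart. Levels are also given for the whole male gonad at 14.5 dpc, which was wild type and not cultured. Further levels come from mature Sertoli cells, taken from wild-type testis at 8 weeks of age and grown for 7 days, and from wild-type tail tip fibroblasts (TTF) that carried a tdTomato transgene and were grown for 3 passages, both in 10% serum. The labels do not say whether the arrays of a group came from separate animals or cultures, nor how Sertoli cells were isolated, so p-values speak only of the spread among the arrays at hand, part of which may be technical.

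Sertoli cells are the somatic nurse cells of the seminiferous tubule. They are held in an epithelium by tight and gap junctions, surround the germ cells, secrete anti-Mullerian hormone, inhibin, transferrin and clusterin, and send the signals Dhh, Gdnf and Kitl to their neighbours. Before puberty they still divide. Fibroblasts in culture are mesenchymal cells that lay down collagens and elastic fibres and keep a record of their place in the body in the Hox and other positional transcription factor genes.

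Every array had the same spread of deposited log2 values, from 0.566 to 18.872 with a median of 7.488 and a 75th percentile of 10.473. Values near or under the median are dim by rank, and differences against them depend on a background that is not known here. The root mean square distance between the arrays of a group, over the members, was 0.254 for immature Sertoli cells and 0.220 for MEF, against 1.317 between the group means. One array stood apart in part of its surface. Of the 13080 members above the median on all 4 arrays, 199 differed by more than 1 between the immature Sertoli arrays, 198 of them dimmer on the second, and 197 of these lay in 1 edge zone, the last 24 places of the first 200 runs of 164 feature numbers. The zone held 1063 members. MEF arrays differed by more than 1 for 0 of the 921 of them that were above the median on all 4 arrays. The cause of the zone was not tested. With the second immature array left out at this zone, 5667 genes in place of 5595 were higher and 5688 in place of 5686 were lower, and list counts in the zone moved by at most 1 gene (niche factors lower 9 to 8, basement membrane higher 14 to 15, cartilage lower 5 to 4, cycle inhibitors higher 4 to 5, interferon genes higher 18 to 19). Fibin (-5.72), Krt18 (3.76), Mpeg1 (4.78), Hoxb13 (2.11), Hoxd8 (0.22) and Pou5f1 (2.39), whose features also lie there, moved by at most 0.10 and are given from all arrays.

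Most members differed between the cell types. Of the 14890 members, 5595 (37.6%) were higher in immature Sertoli cells and 5686 (38.2%) were lower, 75.8% in all, by limma's moderated test with Benjamini-Hochberg adjusted p under 0.05 over 16658 genes. The median difference over all members was -0.015 on the log2 scale, a value that the equal quantiles of the arrays hold near 0. The 4 arrays separated by group, without overlap, for 85.9% of the members, which included every gene called. Differences of at least 1 were reached by 2105 called genes that were higher (14.1%) and 1683 that were lower (11.3%). A difference of at least 3, a size chosen after the values were seen, was reached by 483 higher (3.24%) and 193 lower (1.30%) genes.

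Some members could hardly fail to differ. 1011 were above the median on both immature Sertoli arrays and on no MEF array, and 990 of these were called higher; 453 were above it on both MEF arrays only, and 423 of these were called lower. Among the 13080 members above the median on all 4 arrays, 34.3% were higher and 39.5% lower, 73.8% in all. The membership limit fell between genes of near-equal level: Spata25, Slc10a4l and Rab17 lay just inside, with a second-highest value of 7.49 each, and Wdr93 (7.49), Aadacl4fm1 (7.49) and Slamf8 (7.48) lay just outside.

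The 12 genes that rose most included genes known from germ cells and from the Sertoli epithelium. Stra8, a gene that germ cells switch on under retinoic acid before meiosis, read 16.71 and 16.49 on the immature Sertoli arrays and 6.02 and 5.11 on the MEF arrays. Its difference was 11.04 ± 0.24 (log2 ± SE, adjusted p = 2.88e-09, limma, n = 2 arrays a group). The levels did not overlap, as for every gene called, and the MEF values were under the array median. Cidea, a protein of lipid droplets, read 16.11 and 16.34 against 6.54 and 6.47, a difference of 9.72 ± 0.11 (adjusted p = 1.6e-10). Lcn2, an acute-phase protein that binds iron carriers, read 16.30 and 16.54 against 8.40 and 8.48, a difference of 7.98 ± 0.08. Both stood high on each Sertoli array, while the uncultured gonad had mean levels of 9.22 for Cidea and 8.56 for Lcn2. Cldn11, the claudin of the Sertoli tight junction, read 15.43 and 15.50 against 7.24 and 7.30, a difference of 8.20 ± 0.06 (adjusted p = 4.21e-11). It was dim on both MEF arrays and among the brighter genes on both Sertoli arrays.

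The remaining genes of the top 12 were Tuba3a (9.15), Tuba3b (8.56), Cst12 (8.88), Rpl10l (8.81), Mael (8.33), Dazl (8.15), Tex19.1 (8.02) and Defb36 (7.93). Tuba3a and Tuba3b encode near-identical alpha-tubulins, so their signals may be shared and are uncertain for each copy. Cst12 encodes a cystatin, Defb36 a beta-defensin and Rpl10l a retrocopy of a ribosomal protein gene that male germ cells use. For Rpl10l the MEF arrays differed from each other, at 4.11 and 5.61, both far under the median, and the Sertoli arrays read 13.59 and 13.76. Another feature of Rpl10l gave 6.37 and another feature of Defb36 gave 6.06, smaller than the values above but in the same direction.

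**Figure D1:**
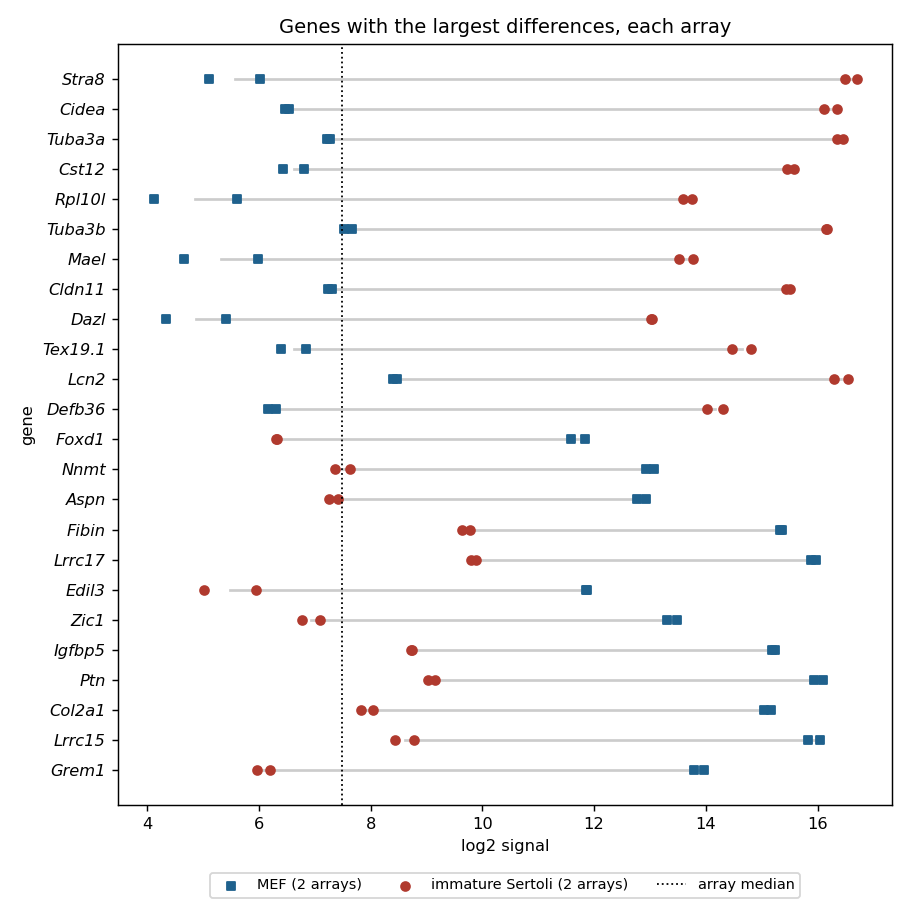
Log2 signal of the 12 genes that rose most and the 12 that fell most, on each of the 2 immature Sertoli arrays (circles) and 2 MEF arrays (squares); the dotted line is the array median of 7.488. The groups do not overlap for any of the 24 genes shown, which was a condition of their choice. Stra8, at the top, spans 5.11 to 16.71.

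The 12 largest falls took in secreted signals, matrix proteins, transcription factors and an enzyme. Grem1, a secreted antagonist of bone morphogenetic proteins, read 5.96 and 6.20 on the immature Sertoli arrays and 13.97 and 13.79 on the MEF arrays, a difference of -7.80 ± 0.27 (adjusted p = 3.48e-08, limma). Col2a1, the collagen of cartilage, read 7.83 and 8.04 against 15.04 and 15.17, a difference of -7.17 ± 0.14. Ptn, the heparin-binding growth factor pleiotrophin, read 9.16 and 9.02 against 16.10 and 15.93, a difference of -6.93 ± 0.10. All were bright on both MEF arrays, and of the 3 only Grem1 was under the median on both Sertoli arrays. Igfbp5, which binds insulin-like growth factors, read 8.74 and 8.73 against 15.23 and 15.19, a difference of -6.48 ± 0.06. Its level in the gonad was 15.31, as high as in MEF, and although its feature lies in the uneven zone the difference was -6.47 with the second Sertoli array left out there. Foxd1, a forkhead factor of stromal progenitors, read 6.31 and 6.33 against 11.59 and 11.84, a difference of -5.40. The others were Lrrc15 (-7.33), a membrane protein of matrix-forming fibroblasts, Zic1 (-6.46), a zinc finger factor, Edil3 (-6.38), an integrin ligand, Lrrc17 (-6.08), Fibin (-5.64), Aspn (-5.51), a small proteoglycan, and Nnmt (-5.51), which methylates nicotinamide. Second features of Zic1 and Nnmt fell by less, at -1.95 and -3.21.

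Genes known to define the Sertoli lineage were mostly higher in the immature cells than in MEF. All 5 transcription factors that the study used for reprogramming were higher than in MEF, although none was dim in MEF. Gata4 read 14.04 and 14.28 against 9.50 and 9.36, a difference of 4.73 ± 0.15 (adjusted p = 1.82e-08, limma). Nr5a1, the nuclear receptor that drives steroid enzymes and Amh, read 13.77 and 14.02 against 9.26 and 9.12, a difference of 4.70 ± 0.09. These 2 factors lay more than 4 above MEF on either array. Wt1, needed to form and keep the Sertoli lineage, read 15.61 and 15.67 against 11.72 and 11.83, a difference of 3.87 ± 0.07. Dmrt1, which holds the male fate, read 11.96 and 11.79 against 9.01 and 8.97, a difference of 2.89 ± 0.08. Sox9, the switch of Sertoli fate below Sry, read 13.56 and 13.38 against 10.87 and 10.89, a difference of 2.59 ± 0.07. Sox9 thus had the smallest difference of the 5, and its MEF level was well above the array median.

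Of 37 Sertoli marker genes on the array 35 were members; 30 were higher, 2 lower and the median difference was 3.35, beside 37.6%, 38.2% and -0.015 over all members. 8 of the 35 were dim on both MEF arrays. Of the 27 above the median on all 4 arrays 22 were higher. Inha, the inhibin alpha subunit that restrains follicle-stimulating hormone (FSH), read 15.76 and 15.69 against 10.10 and 10.01, a difference of 5.67 ± 0.06 (adjusted p = 1.41e-10, limma). Dhh, the hedgehog ligand that Sertoli cells send to Leydig and peritubular cells, read 14.27 and 14.32 against 8.56 and 8.68, a difference of 5.67. Neither gene's arrays overlapped between the groups, as for every gene called. Cited1, a transcriptional co-regulator, differed by 6.36, Gstm6, a glutathione transferase, by 6.10, and Tesc, a calcium-binding protein of the fetal gonad, by 5.79. Clu, the secreted chaperone clusterin, was bright in both cell types, at 18.29 and 18.29 against 14.36 and 14.09. Fshr, the FSH receptor, was dim in absolute terms, at 8.70 and 8.64 against 5.09 and 3.23, a difference of 4.51 ± 0.53 (adjusted p = 7.39e-05).

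Some hallmark products of the fetal Sertoli cell read lower in the cultured cells than in the 14.5 dpc gonad. Amh, the hormone that removes the Mullerian ducts, read 8.26 and 8.34 against 5.92 and 5.82 in MEF, a difference of 2.43 ± 0.19 (adjusted p = 6.03e-06, limma), while the 14.5 dpc gonad had a mean of 12.34. Ptgds, a prostaglandin synthase of fetal Sertoli cells, read 12.65 and 12.65 against 8.11 and 7.99 but averaged 16.89 in the gonad. Both were above MEF and below the gonad on every array. Rhox5, an X-linked homeobox gene of Sertoli cells, was lower than in MEF, at 10.15 and 10.26 against 10.52 and 10.72 (-0.42), with 16.52 in the gonad and 13.41 in mature Sertoli cells. Etv5, a factor for the stem cell niche, was the other called fall (-0.23), a call lost with the compared groups alone or without the first immature Sertoli or the first MEF array. Cst9, a cystatin of fetal Sertoli cells, read 7.55 and 7.29 against 4.33 and 6.71 and was no member, while the gonad arrays read 16.98 and 16.85. Sostdc1, a BMP and Wnt antagonist, was under the median on all 4 arrays and averaged 12.53 in the gonad. The gonad differs from the cultured cells in age, culture and cell mixture, and it shares no test with this comparison here.

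The receptor for Amh was itself high in the immature cells. Amhr2 read 14.74 and 14.92 against 9.88 and 9.92 in MEF, a difference of 4.93 ± 0.07 (adjusted p = 3.56e-10, limma). Of 16 inhibin, activin and Amh pathway genes 15 were members, of which 12 were higher and 2 lower, with a median of 0.96; of the 11 above the median on all 4 arrays 9 were higher and 1 lower. The niche signals to germ cells were divided, with 9 of 18 higher, 9 lower and a median of -0.09. Of the 15 above the median on all 4 arrays 6 were higher and 9 lower. Kitl, the ligand of the receptor Kit on germ cells, read 12.86 and 12.29 against 9.13 and 9.16, a difference of 3.44. Gdnf, the growth factor of spermatogonial stem cells, read 12.37 and 12.11 against 10.28 and 10.31, a difference of 1.94. Both were higher in the Sertoli cells than in MEF, while TTF averaged 13.35 for Kitl and 13.14 for Gdnf. The largest falls of the list were Igf2 (-5.09), Artn (-1.97) and Cxcl12 (-1.97). Of 15 members of a list of gonad transcription factors 7 were higher and 6 lower, with a median of -0.01, and of 13 genes of granulosa cells and ovary 5 were higher and 7 lower. Nr0b1, the X-linked receptor Dax1, was higher by 3.84 on its brightest feature and by up to 6.50 over its 10 features, and Tcf21, a mesenchymal and gonadal bHLH factor, was higher by 2.78.

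**Figure D2:**
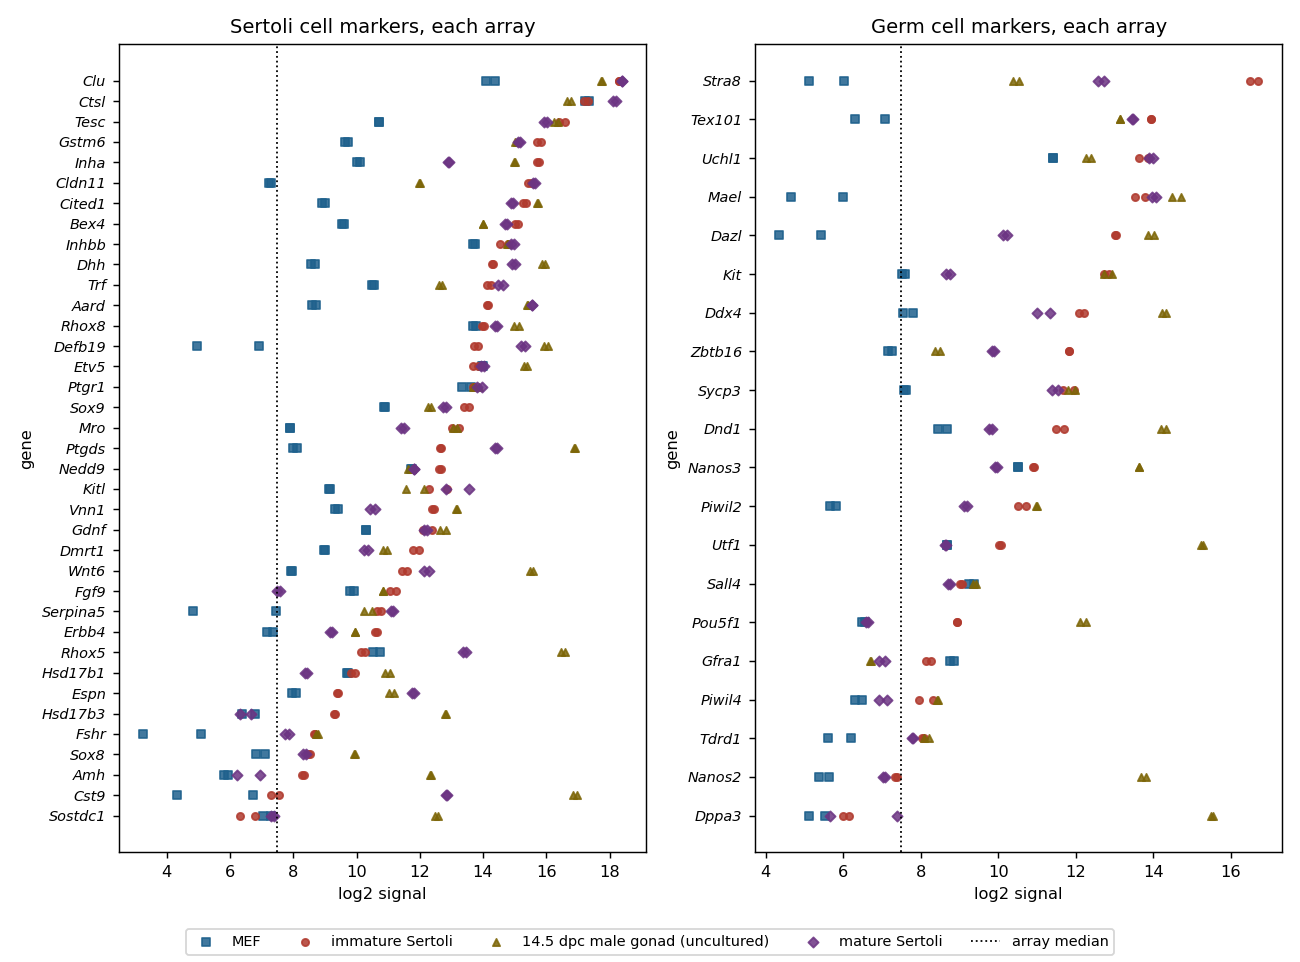
Log2 signal (horizontal axis) of the 37 Sertoli markers (left) and 20 germ cell genes (right) on each array of MEF, immature Sertoli cells, the 14.5 dpc gonad and mature Sertoli cells (2 arrays each); the dotted line is the array median of 7.488. Amh is at 8.26 and 8.34 in immature Sertoli cells against a gonad mean of 12.34, whereas Stra8 is at 16.71 and 16.49 against a gonad mean of 10.46.

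Epithelial genes were higher in the immature Sertoli cells. All 29 on the array were members, of which 25 were higher and 2 lower, with a median difference of 3.04. 9 were dim on both MEF arrays. Of the 18 above the median on all 4 arrays 15 were higher and 2 lower. Krt8, a keratin of simple epithelia, read 16.18 and 16.33 against 10.22 and 10.34, a difference of 5.98 (adjusted p = 5.81e-10, limma), and its partner Krt18 read 17.40 and 17.55 against 13.65 and 13.64, a difference of 3.83 ± 0.08. Lsr, a receptor of tricellular junctions, read 16.30 and 16.48 against 10.58 and 10.48, a difference of 5.86. All were well apart. Elf3, an epithelial ETS factor, differed by 5.82. Cdh1, E-cadherin, read 11.53 and 11.32 against 6.10 and 6.47, a difference of 5.14 ± 0.36. Epcam, an epithelial adhesion molecule, read 11.70 and 10.90 against 6.42 and 6.52; it lies in the uneven zone, and its difference was 4.83, or 5.23 with the second Sertoli array left out. The 2 called falls were Pkp3 (-0.63) and Jup (-0.31), both plaque proteins of desmosomes.

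Of 31 tight and gap junction genes on the array 27 were members, with 20 higher, 5 lower and a median of 1.70; 15 were above the median on all 4 arrays, 9 of them higher and 5 lower. Besides Cldn11, Cgn, the tight junction adaptor cingulin, read 15.05 and 14.94 against 8.94 and 9.11, a difference of 5.97 (adjusted p = 1.71e-10, limma). Cldn7 read 13.52 and 13.66 against 8.37 and 8.30, a difference of 5.26. Ocln, occludin, read 10.61 and 10.75 against 4.95 and 6.05, a difference of 5.18 ± 0.29. Cldn11, Cgn, Cldn7 and Ocln were thus each higher on both Sertoli arrays. Of the list's members 10 were dim on both MEF arrays. Jam2 differed by 4.93, Marveld2, tricellulin, by 3.85 and Cldn3 by 3.83. Tjp1, the ZO-1 scaffold that fibroblasts also use, differed by 0.26 (adjusted p = 0.0129). Gjb2, connexin 26, was lower, at 9.88 and 9.97 against 13.46 and 13.28 (-3.44). The other called falls were Gja1 (-0.58) and Gjc1 (-0.36), also connexins, Pard3 (-0.64), a polarity scaffold of tight junctions, and Cldn15 (-0.18); without the first immature Sertoli or the first MEF array 3 genes of the list were called lower.

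Germ cell genes were high on both immature Sertoli arrays. Of 20 on the array 18 were members, 16 of them higher and 2 lower with a median difference of 3.62. 9 were dim on both MEF arrays, and of the 9 above the median on all 4 arrays 7 were higher and 2 lower. Dazl, an RNA-binding protein that germ cells need, read 13.02 and 13.03 against 4.34 and 5.42, a difference of 8.15 ± 0.31 (adjusted p = 5.85e-08, limma). Mael, a protein of the piRNA pathway, read 13.77 and 13.52 against 4.66 and 5.98, a difference of 8.33 ± 0.38. Both were dim on the MEF arrays, and their gonad means were 13.93 and 14.59. Tex101, a germ cell surface protein, read 13.93 and 13.94 against 7.08 and 6.30, a difference of 7.25 ± 0.24. Kit, the receptor for Kitl, read 12.84 and 12.73 against 7.60 and 7.50, a difference of 5.24 ± 0.12. Ddx4, the germ cell helicase, read 12.09 and 12.20 against 7.53 and 7.80, a difference of 4.48 ± 0.42. None of these overlapped, as for every gene called. Piwil2 (4.86) and Sycp3 (4.22), of the piRNA pathway and the meiotic chromosome axis, were also higher.

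Within the list the levels did not follow the gonad. Zbtb16, a factor of undifferentiated spermatogonia, read 11.81 and 11.84 in immature Sertoli cells and averaged 8.43 in the gonad, and Stra8 was likewise above its gonad level. Nanos2, a male fetal germ cell regulator, read 7.38 and 7.34, under the array median, with 13.74 in the gonad. Dppa3, a gene of primordial germ cells, read 6.15 and 5.98, with 15.51 in the gonad. Both were below the median on all 4 arrays compared. Pou5f1 (2.40), Utf1 (1.36) and Nanos3 (0.39), genes of pluripotent or early germ cells, were called higher with smaller differences. Gfra1, the Gdnf receptor, was lower by -0.60, and Sall4, a factor of undifferentiated germ cells, was lower by -0.27 on its brightest feature while another feature gave 6.00. The summed signal of the 20 genes, on the log2 scale, was 17.38 to 17.51 in immature Sertoli arrays, 12.83 to 12.86 in MEF, 15.90 to 15.92 in mature Sertoli cells and 17.79 to 17.80 in the gonad. Without Stra8, the brightest gene of the list in immature Sertoli cells, it was 16.27 to 16.28 there, 12.82 to 12.86 in MEF and 17.78 to 17.79 in the gonad. In such bulk samples fewer cells of a type and less RNA per cell cannot be told apart. Whether germ cells were present in the cultures, and any part of theirs in the differences of other genes, was not tested.

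The promoters of the 3 genes of the germ cell list with the largest rises are shown because these genes were dim in MEF, at most 6.02, and bright in immature Sertoli cells. Each run gives 250 bases before and 50 bases after the first listed RefSeq start (GRCm38.p6), 5′ to 3′ on the gene's strand, with each CG dinucleotide, the site of DNA methylation in mammals, in capitals. The Stra8 window, chr6:34920698-34920997 on the plus strand, holds 10 CG.
Stra8: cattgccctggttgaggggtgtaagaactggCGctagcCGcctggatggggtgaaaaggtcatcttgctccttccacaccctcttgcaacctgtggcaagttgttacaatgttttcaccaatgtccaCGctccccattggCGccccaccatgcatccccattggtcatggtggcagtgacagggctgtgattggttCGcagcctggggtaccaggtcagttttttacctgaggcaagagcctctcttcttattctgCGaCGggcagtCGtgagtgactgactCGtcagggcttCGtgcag
The Dazl window, chr17:50293571-50293870 on the minus strand, holds 28 CG.
Dazl: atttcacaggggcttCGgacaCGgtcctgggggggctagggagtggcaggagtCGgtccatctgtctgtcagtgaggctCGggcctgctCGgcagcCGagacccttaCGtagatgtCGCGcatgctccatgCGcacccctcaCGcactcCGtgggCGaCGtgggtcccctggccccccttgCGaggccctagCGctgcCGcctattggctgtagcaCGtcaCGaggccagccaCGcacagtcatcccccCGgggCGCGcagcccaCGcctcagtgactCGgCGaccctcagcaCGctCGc
The Mael window, chr1:166238695-166238994 on the minus strand, holds 24 CG.
Mael: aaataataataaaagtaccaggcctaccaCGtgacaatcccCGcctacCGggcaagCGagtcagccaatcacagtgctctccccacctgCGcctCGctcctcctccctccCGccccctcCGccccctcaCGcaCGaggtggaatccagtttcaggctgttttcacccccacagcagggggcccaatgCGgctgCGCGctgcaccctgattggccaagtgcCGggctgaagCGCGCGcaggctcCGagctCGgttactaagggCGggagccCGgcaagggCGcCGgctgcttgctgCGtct
The median over the promoters of 11824 members was 19 CG, so Dazl and Mael lay above it and Stra8 below. Methylation was not measured.

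Large rises were counted by chromosome. Of 585 X-linked members 268 (45.8%) were higher in immature Sertoli cells, and 69 (11.79%) were higher by at least 3, against 1.42% to 4.43% on the autosomes. 55 of the 69 were dim on both MEF arrays, and over the 457 X-linked members above the median on all 4 arrays the median difference was -0.05. Members of testis gene families were among the large values. Fthl17d, a ferritin-like gene, read 13.44 and 13.10 against 5.29 and 5.56, a difference of 7.85. Mageb4, a melanoma antigen family gene of germ cells, read 12.88 and 12.90 against 5.24 and 5.38, a difference of 7.58. Xlr5b read 12.75 and 12.69 against 4.93 and 5.74, a difference of 7.38. Each was far under the median in MEF. Sox3, a factor of spermatogonia, read 11.89 and 11.80 against 5.84 and 6.19, a difference of 5.84, and Tmem255a differed by 7.39.

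Counted by family, 9 of 13 Mage members were higher and 3 lower (-1.32 to 7.58), 6 of 7 Rhox members were higher and 1 lower (-0.42 to 6.62), 9 of 9 Xlr members were higher (0.84 to 7.38) and 3 of 3 Fthl17 members were higher (7.29 to 7.85). Over all members 37.6% were higher and 38.2% lower in this comparison. The family members at least 3 higher (7 Mage, 3 Rhox, 3 Xlr and 3 Fthl17) were all dim on both MEF arrays. These could hardly be called lower. Copies within these families are alike in sequence and may share signal, so the value of any single copy is uncertain. In the comparison of mature Sertoli cells with TTF, which shares no array, 66 of the 69 X-linked genes with the large rise were called higher. Over all members 34.7% were higher and 42.5% lower there. That share is no like base, because the 69 were chosen by a large rise. Of all 483 members at least 3 higher, on any chromosome, only 43 were not called there in either direction. Germ cell genes moved with them, and any part of germ cells in these values was not tested.

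**Figure D3:**
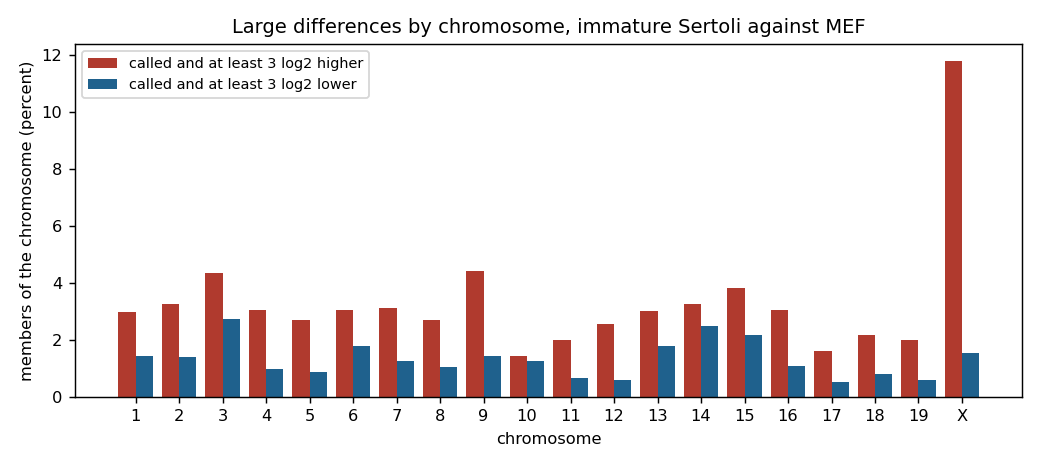
Share of the members of each chromosome, in percent, that were called at least 3 higher or at least 3 lower (log2) in immature Sertoli cells than in MEF. The X chromosome has 11.79% of its 585 members higher by at least 3, and the autosomes 1.42% to 4.43%.

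The arrays also carried genes that mark the sex of the source. Xist, the RNA of the inactive X in female cells, read 5.64 and 5.19 in immature Sertoli cells and 9.25 and 9.27 in MEF (-3.84 ± 0.33). Eif2s3y, a Y-linked gene, read 12.78 and 12.72 in immature Sertoli cells, 11.12 and 11.07 in MEF and 6.11 and 5.84 in TTF. Each MEF array therefore held both at levels above the median, whereas the immature Sertoli arrays held only the Y-linked gene. The TTF arrays, with Xist at 9.85 and 9.83, held only Xist above the median. Mature Sertoli arrays read 5.35 and 4.40 for Xist and 12.85 and 12.71 for Eif2s3y. The part of sex in the X-linked differences was not tested.

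Markers of other cell types of the testis were read as whole lists. Of 11 measured genes of Leydig cells and steroid synthesis 10 were higher and 1 lower, with a median of 2.15; of the 7 above the median on all 4 arrays 6 were higher. Cyp11a1, which opens steroid synthesis, read 13.78 and 14.01 against 8.73 and 8.69, a difference of 5.19 ± 0.42 (adjusted p = 6.96e-06, limma). Hsd3b1 read 12.10 and 12.23 against 7.90 and 7.84, a difference of 4.30, and Star, the cholesterol carrier of mitochondria, 11.86 and 11.96 against 8.87 and 8.86, a difference of 3.05. All were well separated. Cyp17a1, the androgen-forming enzyme of Leydig cells, was lower, at 10.62 and 10.48 against 11.37 and 11.06 (-0.67), with 16.80 in the gonad. The list's summed log2 signal was 17.15 to 17.18 in immature Sertoli arrays, 15.32 to 15.42 in MEF and 18.86 to 18.87 in the gonad, and none of its genes was under the median on all 4 arrays. Without Fdx1, an electron carrier of steroid synthesis and the brightest gene of the list, the sums were 15.85 to 15.93, 14.40 to 14.64 and 18.41 to 18.44.

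Macrophage genes were higher for 16 of 21 members and lower for 1, with a median of 1.06. Mpeg1, a pore-forming protein of phagocytes, read 14.56 and 14.44 against 9.74 and 9.82, a difference of 4.72, and Csf1r, the macrophage growth factor receptor, 13.94 and 13.73 against 10.81 and 10.80, a difference of 3.03, though another feature of Csf1r gave -0.29. Both were well above their MEF levels. Aif1 (2.08), Tyrobp (1.36) and C1qa (0.93) were higher by less, Itgam was lower on its brightest feature (-1.21) with 0.13 on another, Cd68 differed by 0.14 without passing the test, and Ptprc, the pan-leukocyte marker CD45, and Cd163 were under the median on all 4 arrays. The list summed to 15.93 to 16.01 in immature Sertoli arrays, 14.73 to 14.90 in MEF and 14.79 to 14.85 in the gonad, and without Mpeg1 to 15.30 to 15.35, 14.68 to 14.86 and 14.68 to 14.76. Erythroid genes were mostly dim: 4 of 11 were members and all 4 were higher. However, 3 of the 4 were dim on both MEF arrays and could hardly be called lower. Among these, Hbb-bt read 8.65 and 8.93 against 5.07 and 5.07, with 17.84 in the gonad. Gata1, another of the 4, averaged 13.46 in mature Sertoli cells, where Hbb-bt averaged 4.02. Other lists had shares near those of all members, with 7 higher and 7 lower of 16 endothelial genes (4 lower without the second immature Sertoli array), 6 and 4 of 13 mesothelial and podocyte genes, 5 and 5 of 12 cartilage genes (3 higher without the first MEF array), 5 and 5 of 11 skeletal muscle genes and 5 and 3 of 11 glial and neural genes. The filter had a part in this balance. Of members above the median on all 4 arrays, 3 were higher and 7 lower of 12 endothelial genes. The same counts were 5 and 4 of 12 mesothelial and podocyte, 3 and 2 of 6 cartilage, 5 and 2 of 8 skeletal muscle and 4 and 3 of 10 glial and neural genes. Cdh5, the endothelial cadherin, read 9.60 and 8.22 against 5.76 and 6.01 in the uneven zone, a difference of 3.03, or 3.71 without the second Sertoli array there. Whether such cells were present, and any part of theirs in other differences, was not tested.

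**Figure D4:**
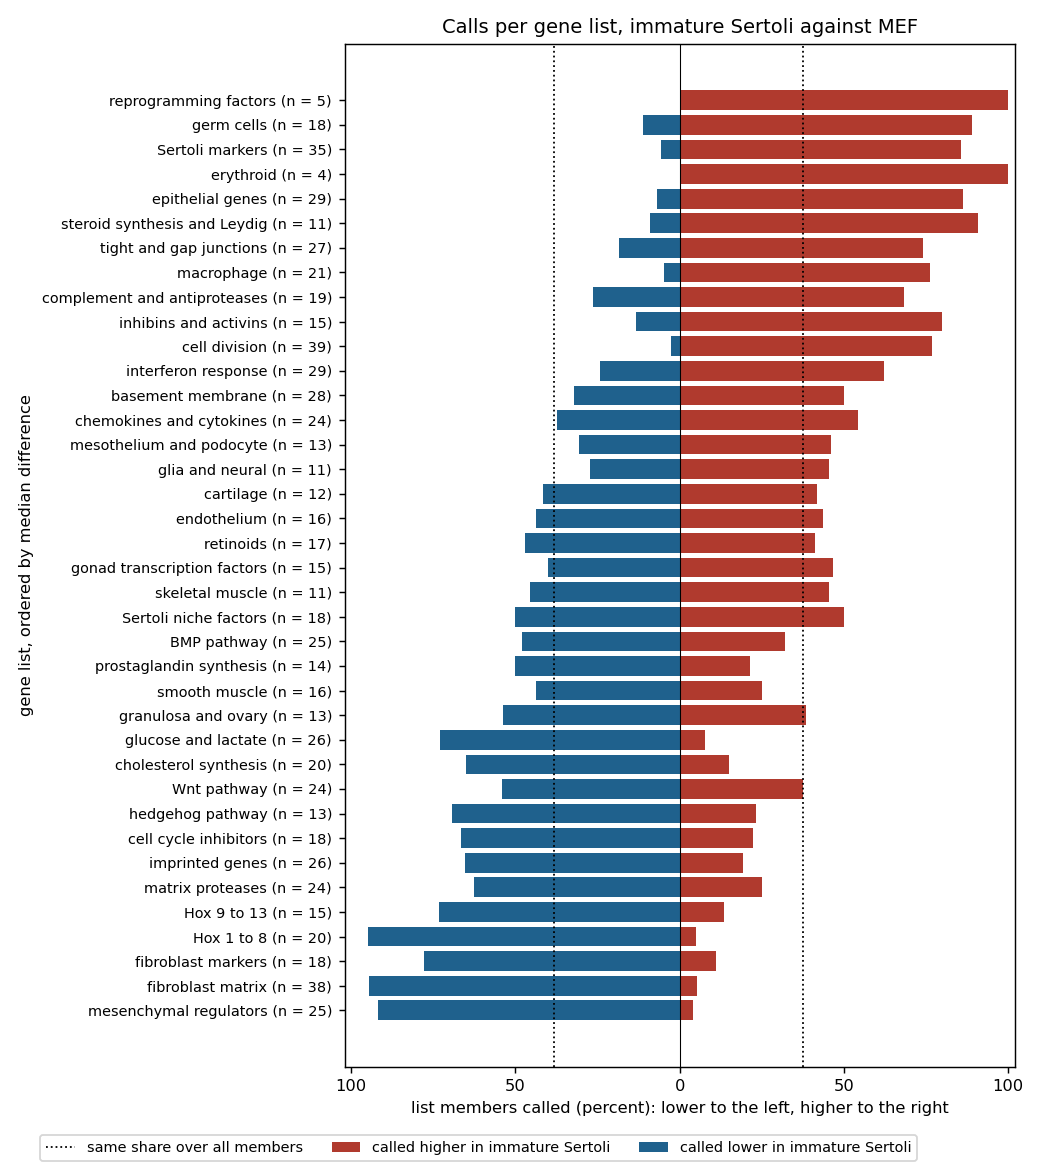
Percent of each list's members called higher (bars to the right) or lower (bars to the left) in immature Sertoli cells than in MEF, with the lists ordered by median difference; the dotted lines are the shares over all members, 37.6% and 38.2%. Germ cell genes (median 3.62), Sertoli markers (3.35) and epithelial genes (3.04) are near the top, and mesenchymal regulators (-2.83), fibroblast matrix (-2.26) and Hox genes of groups 1 to 8 (-1.99) near the bottom.

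On the other side of the comparison stood the mesenchymal programme of the fibroblasts. Of 25 mesenchymal regulators, all members, 23 were lower in immature Sertoli cells, 1 was higher and the median was -2.83; 6 were dim on both Sertoli arrays, and of the 19 above the median on all 4 arrays 17 were lower and 1 higher. Snai2, which represses E-cadherin, read 10.55 and 10.65 against 14.76 and 14.82, a difference of -4.19. Meox2, a homeobox gene of mesoderm, read 5.53 and 4.98 against 10.66 and 10.60, a difference of -5.38. Tbx15, a T-box gene of limb and skin mesenchyme, read 7.68 and 7.66 against 13.03 and 12.94, a difference of -5.31. These were lower on both Sertoli arrays, and Meox2 was under the median there. Pitx1 (-5.21), which marks the hindlimb, and Tbx5 (-4.43), which marks the forelimb, were lower too. Zeb2, a repressor of epithelial genes, was the exception, higher by 0.53 on its brightest feature and -0.13 on another.

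Fibroblast matrix genes were lower for 36 of 38 members and higher for 2, with a median of -2.26, and 37 of the 38 were above the median on all 4 arrays. Tgfbi, a collagen-binding protein, read 12.07 and 12.04 against 16.92 and 16.68, a difference of -4.75. Col1a1, the main collagen of fibroblasts, read 16.43 and 16.32 against 17.39 and 17.37, a difference of -1.01 ± 0.06 (adjusted p = 5.73e-07, limma), so it remained among the brightest genes in the Sertoli cultures. The matrix glycoprotein Thbs2 (-4.01) and the proteoglycans Ogn (-3.92) and Lum (-3.73) were lower too. Col14a1 (0.93) and Ccn2 (0.66), a growth factor target of mechanical stress, were the 2 higher genes. Of 18 fibroblast markers 14 were lower and 2 higher (1 without the second immature Sertoli or the first MEF array), with a median of -2.04. Thy1, a surface marker of fibroblasts, read 14.43 and 14.54 against 17.50 and 17.51, a difference of -3.02 ± 0.16, and Vim, the mesenchymal filament that Sertoli cells also use, 17.25 and 17.26 against 17.58 and 17.82 (-0.44). Ly6a, the antigen Sca-1, was higher (1.48). The fibroblast list summed to 18.57 to 18.62 in the Sertoli arrays and 19.93 to 19.94 in MEF, with Clec3b under the median on all 4. Smooth muscle genes summed to 20.32 to 20.33 and 20.66 to 20.68, with 4 of 16 higher and 7 lower.

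Basement membrane genes, which both cell types use, were higher for 14 of 28 members and lower for 9, with a median of 0.38. Lamb3, a laminin chain of epithelia, was higher by 4.33 and Lama4, a chain of mesenchyme and vessels, lower (-1.95). Lama1 read 13.87 and 12.71 against 12.98 and 12.90, a difference of 0.35 that did not pass the test (adjusted p = 0.307, limma); with the second Sertoli array left out at the uneven zone it was 0.93 and passed (adjusted p = 5.09e-05). Of 24 matrix proteases and their inhibitors 15 were lower and 6 higher, with Mmp13, a collagenase, at -4.04 and Adamts1 at 1.62.

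Hox genes, the record of body position, were lower in the Sertoli cells with few exceptions. In groups 1 to 8, 19 of 20 members were lower and 1 higher, with a median of -1.99, and in groups 9 to 13, 11 of 15 were lower and 2 higher, with a median of -1.76. 9 of the 15 were above the median on all 4 arrays, 5 of them lower and 2 higher. Hoxd12, of the limb end and genital region, read 6.00 and 6.30 against 10.19 and 10.26, a difference of -4.08, and Hoxd13 read 7.50 and 7.46 against 11.37 and 11.42, a difference of -3.92. Both MEF arrays were clearly brighter. Hoxa3 (-3.32), Hoxa7 (-3.31) and Hoxc6 (-3.15) fell in the same way. The exceptions were Hoxd8 (0.32), Hoxd9 (1.05) and Hoxb13, which read 9.84 and 9.97 against 7.72 and 7.73, a difference of 2.18.

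Of 39 cell division genes, all above the median on all 4 arrays, 30 were higher in immature Sertoli cells and 1 was lower (3 without the first immature Sertoli array), with a median of 0.51. In mature Sertoli cells against TTF 37 of the 39 were higher and 1 lower, with a median of 2.05. Mcm5, of the replication helicase, read 14.51 and 14.68 against 13.17 and 13.36, a difference of 1.33 (adjusted p = 1.85e-06, limma). The largest rises, Mcm5, Mcm2 and Gins1, averaged 13.59, 12.36 and 11.96 in mature Sertoli cells, under 14.59, 13.53 and 12.73 in immature ones. Their TTF means of 10.98, 10.84 and 10.04 were under their MEF means of 13.27, 12.39 and 11.60. The larger mature differences of these genes thus went with low TTF levels. Mki67 read 15.20 and 15.25 against 14.60 and 14.60, a difference of 0.63, and Ccne1, cyclin E1, was lower (-1.33). Unlike those largest rises, Ccne1 averaged more in mature (13.37) than in immature Sertoli cells (12.85). Cdc20 and Cenpe, which act in mitosis, read 13.60 and 12.61 on the second Sertoli array against 15.05 and 14.24 on the first; both lie in the uneven zone and neither passed the test, with differences of -0.72 and -0.69, or 0.01 and 0.13 without that array there. Inhibitors of the cycle were lower for 12 of 18 members and higher for 4, with a median of -0.62. Cdkn2a, a gene of cell senescence, read 12.19 and 12.31 against 14.73 and 14.95, a difference of -2.59. Its neighbour Cdkn2b (-2.51) and the imprinted inhibitor Cdkn1c (-3.04) were lower too.

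Genes of glucose and lactate use were lower for 19 of 26 members and higher for 2, with a median of -0.36. Eno2, an enolase isoform, was lower by -3.34 and Slc16a3, a lactate exporter, by -2.21, while Hk2, a hexokinase, was higher (2.24), as was Ldhb (1.42). Of 14 prostaglandin synthesis genes 3 were higher and 7 lower. Cholesterol synthesis genes were lower for 13 of 20 and higher for 3, with a median of -0.37. Genes of retinoic acid, the signal that starts meiosis, divided evenly, with 7 of 17 higher, 8 lower and a median of 0.01. Aldh1a1, which makes retinoic acid, read 17.78 and 17.91 against 11.23 and 11.31, a difference of 6.58 (adjusted p = 9.34e-11, limma). Stra6, the receptor that takes up retinol, read 12.51 and 12.66 against 7.21 and 7.06, a difference of 5.45. Crabp2, which carries retinoic acid to the nucleus, read 10.82 and 10.98 against 16.09 and 15.98, a difference of -5.14. The synthesis and uptake genes named were thus higher and the binding proteins Crabp2 and Crabp1 (-4.07) lower. Of the enzymes that break retinoic acid down, Cyp26a1 was higher (3.62) but Cyp26b1 was lower (-1.80). Cyp26b1 lies in the uneven zone, and without the second Sertoli array there its difference was -1.91. The receptor Rarg was lower (-3.58).

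Signalling families held members on both sides. Among 24 Wnt genes 9 were higher and 13 lower, with a median of -0.55. The ligands Wnt6 (3.56) and Wnt4 (2.54) and the antagonist Sfrp4 (2.71) were higher. Rspo3, which amplifies Wnt signals, read 8.13 and 8.09 against 13.06 and 13.05, a difference of -4.95. Dkk2, a Wnt co-receptor antagonist, read 7.78 and 7.47 against 12.07 and 12.04, a difference of -4.43 ± 0.13. Both were bright in MEF and close to the median in the Sertoli cells. Of 25 genes of the BMP pathway 8 were higher and 12 lower. Its ligands Bmp7 (3.26) and Bmp2 (3.02) and the target Id2 (2.59) were higher, whereas the antagonist Grem1 and the receptor Bmpr1b (-1.77) were lower. In the hedgehog pathway the ligand Dhh was higher, while 9 of 13 members were lower and 3 higher, with a median of -0.60.

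Imprinted genes of growth were lower for 17 of 26 members and higher for 5, with a median of -0.88. Igf2, a fetal growth factor, read 8.88 and 8.79 against 14.18 and 13.67, a difference of -5.09 (adjusted p = 2.59e-08, limma). H19, the non-coding RNA beside it, read 15.17 and 15.38 against 18.50 and 18.48, a difference of -3.21. The 2 neighbours were thus both lower, with H19 still bright. Meg3 was lower by -3.80 on its brightest feature and by -1.96 on another. Grb10, a growth inhibitor, read 10.97 and 9.28 against 12.82 and 12.79 in the uneven zone, a difference of -2.68, or -1.83 without the second Sertoli array there.

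Genes of defence had more members higher than lower. In the list of complement and antiproteases 13 of 19 members were higher and 5 lower, with a median of 1.05. C3, the central complement protein, read 14.82 and 14.83 against 10.27 and 10.33, a difference of 4.52. Wfdc2, an antiprotease of epithelia, read 14.08 and 14.14 against 8.86 and 8.81, a difference of 5.28. Both separated clearly. Interferon genes were higher for 18 of 29 members and lower for 7, with a median of 0.47. Oas1a (3.16), which senses viral RNA, was higher and Ifit3 lower (-1.85), and Xaf1 was -4.75 on its brightest feature and 2.49 on another, so its direction is not settled. Of 24 chemokines and cytokines 13 were higher and 9 lower.

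A second pair of groups, mature Sertoli cells and TTF, allowed a test of whether the Sertoli-fibroblast difference was of the same size at another age. The contrast of the contrasts, (immature Sertoli minus MEF) minus (mature Sertoli minus TTF), passed limma's test for 9593 of the 14890 members (64.4%), 5238 in the positive (35.2%) and 4355 in the negative direction (29.2%). Sertoli age, fibroblast source, time in culture and the transgene of the fibroblasts all differ between the pairs. So do the levels of Xist and Eif2s3y that mark the sex of the fibroblasts, and the design cannot tell these apart. Across the 14890 members, which are not independent replicates, the 2 differences had a Pearson r of 0.577 and a Spearman rho of 0.524, with no array in common. The 483 genes at least 3 higher in the immature comparison shared 220 with the 576 of the mature one, which is 45.5% of the first list and 38.2% of the second. For genes at least 3 lower, 69 were shared, 35.8% of 193 and 27.0% of 256. Of the 483, the contrast of contrasts was positive for 302, negative for 77 and not called for 104. These genes were chosen for a large first term of that contrast, so an excess of positive values was built in.

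Named genes show where the pairs were alike and where not. Ptn had nearly the same difference in both (-6.93 and -6.93), as did Grem1 (-7.80 and -7.73) and Igfbp5 (-6.48 and -6.44). Cldn11 differed by 8.20 and 8.66, a change of -0.46. Stra8 was higher by 11.04 in the immature and 5.96 in the mature comparison, a contrast of 5.07. Wt1 went the other way, with 3.87 and 8.61, and its TTF level of 6.81 was far under its MEF level. For genes with the largest contrasts the fibroblast sources could lie far apart. Ifi202b, an interferon-induced gene, averaged 15.40 in TTF and 5.18 and 5.69 on the MEF arrays (contrast 13.14 ± 0.30), and Col2a1 averaged 6.73 in TTF (-9.87). Krt19, a simple keratin, read 14.38 and 14.40 against 11.63 and 11.61 in the immature comparison and had a contrast of 8.09.

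**Figure D5:**
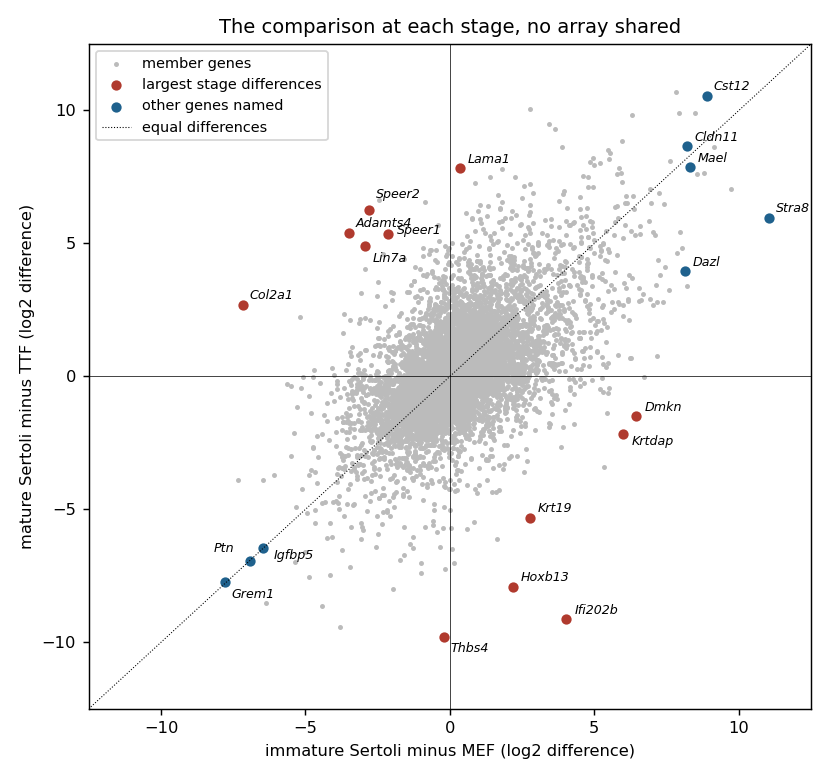
Log2 difference of mature Sertoli cells minus TTF (vertical axis) against immature Sertoli cells minus MEF (horizontal axis) for the 14890 members, 1 point a gene, with a dotted line where both differences are equal. The 2 differences have an r of 0.577 over genes, and Ifi202b, Thbs4 and Col2a1 lie far from the diagonal.

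Promoters of the members were read for a few short motifs, as a description. Of the 381 promoters of genes at least 3 higher the median was 10 CG, and of the 129 of genes at least 3 lower it was 9, beside 19 for all 11824 member promoters and 7 for all 27025 of the RefSeq table. Fewer than 5 CG were held by 24.4% and 20.9% of these sets and by 11.3% of member promoters. The TATA box letters TATAAA, on either strand, were in 13.91% of the genes at least 3 higher, 24.81% of those at least 3 lower, 8.10% of members and 14.16% of all promoters. The genes with large differences in either direction thus had CG-poorer windows than the members as a whole. With TATAAA on the gene's strand and starting 20 to 40 bases before the start, a window chosen after the values were seen, the shares were 4.46%, 6.20%, 1.77% and 2.22%. The GATA letters AGATAA, on either strand, were in 13.12%, 7.75%, 6.77% and 11.41% of the same sets. A match is a run of letters and not a bound site.

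Amhr2 and Dkk2 are shown because their windows hold such letters and they lie on opposite sides of the comparison (4.93 and -4.43). In Amhr2, chr15:102445117-102445416 on the plus strand of GRCm38.p6, the letters CAAGGTCA, which Nr5a1 is known to bind, start 232 bases before the start and are in capitals.
Amhr2: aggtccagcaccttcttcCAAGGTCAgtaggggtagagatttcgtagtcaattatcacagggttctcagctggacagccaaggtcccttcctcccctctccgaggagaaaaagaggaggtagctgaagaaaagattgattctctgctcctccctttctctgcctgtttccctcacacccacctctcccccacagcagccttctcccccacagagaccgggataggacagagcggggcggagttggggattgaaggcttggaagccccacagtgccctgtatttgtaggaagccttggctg
In Dkk2, chr3:132085042-132085341 on the plus strand, TATAAA starts 32 bases before the start and is in capitals.
Dkk2: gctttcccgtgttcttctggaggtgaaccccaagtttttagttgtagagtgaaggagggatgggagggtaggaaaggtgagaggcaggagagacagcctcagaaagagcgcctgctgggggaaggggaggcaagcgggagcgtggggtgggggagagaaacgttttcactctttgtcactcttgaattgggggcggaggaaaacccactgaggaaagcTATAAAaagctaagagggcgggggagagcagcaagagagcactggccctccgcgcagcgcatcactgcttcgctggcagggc
CAAGGTCA or CAAGGCCA, on either strand, was in 3.67% of promoters of genes at least 3 higher, 3.88% of those at least 3 lower, 2.87% of members and 3.91% of all promoters. CAAGGTCA alone, the run shown in Amhr2, was in 0.79%, 1.55%, 1.08% and 1.53% of the same sets, so it was not more common among the large rises. None of the 24 Sertoli marker promoters with an entry held either run of letters, which says only that they are not in these windows. Binding was not measured.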

How the data were processed

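The authors deposited 1 table of log2 signal of 1-colour arrays, with equal quantiles across arrays. The submitters' processing notes name limma without saying for which step; how features were extracted and background removed is not given in the sources used here. Detection flags were not at hand. Precision is limited by the number of arrays.

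Gene names came from the platform annotation, updated to RefSeq symbols (GRCm38.p6), and each gene was represented by its brightest feature on average over 13 arrays. The 16658 genes that exceeded the median on 2 or more of the 13 arrays were fitted with limma 3.58.1 in R 4.3.3 over all 7 groups (residual degrees of freedom 6, prior 2.18), which takes the spread of the lone MEF-ieSC array from the others. Tests were two-sided, with Benjamini-Hochberg adjustment over these genes, and errors beside differences are standard errors. Tables and figures were made in Python 3.11.15 with pandas 2.3.3, numpy 2.4.6 and matplotlib 3.10.9. The fit was tested on simulated data.

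The members and the 38 gene lists (817 genes, 780 on the array, 716 members) were chosen with earlier results of these data known, so a list's direction is not independent evidence. Genes were named by a rule: the 12 largest rises and falls, up to 3 called genes each way per list, the 5 reprogramming factors, 8 markers and the 6 largest contrasts of contrasts each way. Other genes named, among them the X-linked ones and those of the uneven zone, were chosen after their values were seen. Promoters came from a RefSeq table and matched 11824 members. The alternatives were no filter, stricter filters, a gene's features averaged, a difference of at least 1, a variance trend with robust estimates, array weights, a fit on the compared groups alone and each array left out. Leaving out the uneven zone of 1 array was chosen after seeing the data.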

Additional observations from a re-analysis of the deposited data

Results flagged for a closer look

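For 12 genes the difference between immature Sertoli cells and MEF was set beside that between mature Sertoli cells and TTF, and the 2 differences themselves differed in limma's test. The contrast, immature comparison minus mature comparison, was 13.14 for Ifi202b, 10.09 for Hoxb13, 9.60 for Thbs4, 8.16 for Krtdap, 8.09 for Krt19 and 7.94 for Dmkn. It was -9.87 for Col2a1, -9.05 for Speer2, -8.90 for Adamts4, -7.84 for Lin7a, -7.49 for Speer1 and -7.48 for Lama1. These are the largest contrasts each way among genes with a standard name. Fibroblast source with its levels of sex-linked genes, age, transgene and culture time cannot be told apart in them. Hoxb13 averaged 15.88 in TTF and 7.98 in mature Sertoli cells. Thbs4, a matrix protein, read 10.15 and 10.21 in immature Sertoli cells and 10.35 and 10.43 in MEF, which did not pass the test, and averaged 17.40 in TTF. Krtdap and Dmkn, genes of keratinocytes, read 10.96 and 11.16 against 4.92 and 5.21, and 13.04 and 13.14 against 6.77 and 6.52. Adamts4, a protease of cartilage proteoglycan, read 10.32 and 10.28 against 13.78 and 13.80 and averaged 7.62 in TTF. Speer2 read 6.13 and 6.67 against 9.09 and 9.31 and averaged 12.24 in mature Sertoli cells. Speer genes are near-identical copies, so their single values are uncertain. Lin7a and Lama1 lie in the uneven zone of the second immature Sertoli array; without that array there the contrasts were -7.30 and -6.90, and that of Hoxb13, also in the zone, 10.02.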

How the results depend on the processing

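No paired analysis was possible because the labels carry no replicate numbers, only serial sample numbers. With a filter at the 75th percentile of the array (9730 genes tested, fewer by construction) 3634 genes were higher, of which 3578 were among the 5595, and the positive contrasts of contrasts numbered 3225. With a difference of at least 1 the counts were 2105 higher and 1683 lower, and 2017 and 1766 for the contrasts. Leaving out each array in turn gave 5251 to 5407 higher, 5249 to 5434 lower, 4764 to 5177 positive and 3943 to 4312 negative contrasts. Other settings stayed within 1.5 times: no filter gave 6113 and 6016 genes, array weights 5172 and 5192, and the compared groups alone 4939 and 4940. Xaf1 reversed to 2.49 with the brightest feature of the 4 arrays and Sall4 to 2.42 with the mean of features; their features disagree. Single arrays moved the counts of Sertoli markers lower (2 to 1, first immature Sertoli or first MEF array left out) and of the junction, fibroblast marker, cartilage, cell division and endothelial lists, as given beside them. With the uneven zone left out of 1 array, Lif (-0.69 to -0.15) and Matn3 (-1.39 to -1.38) lost their calls, and Lama1 (0.35 to 0.93), Isg15 (0.14 to 0.72), Sesn1 (0.14 to 0.33) and Cxcl5 (-0.23 to -0.32) gained one. Background and detection are not known, so differences against values near the median are not bounded.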
